A study of Saccharomyces cerevisiae with 6 samples.

Results

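Divergent intergenic regions are the stretches of DNA between 2 neighbouring protein-coding genes that point away from each other, so that the stretch lies upstream of both. They were chosen by gene orientation alone, with no use of measured values. Every gap of at least 200 bp between adjacent divergent protein-coding genes was taken on the 16 nuclear chromosomes of budding yeast, outside 25 kb of the chromosome ends. The rule gave 1343 divergent regions of 4618 intergenic regions in all, and 1288 of 4433 could be placed on the deposited positions. The other 55 divergent regions lie on chromosome XI beyond its first 200 kb, where the gene table and the insertion positions were out of step, and they were not analysed. The remaining regions of the genome served for comparison, namely 2364 tandem regions, between 2 genes that point the same way, and 781 convergent regions, between 2 genes that point at each other.

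A divergent region in yeast often holds the promoters of both neighbours, with a nucleosome-depleted stretch before each start codon where transcription factors (TFs) bind. Tandem regions hold 1 promoter and the end of the upstream gene, and convergent regions hold 2 gene ends and no promoter of either neighbour. A TF bound in a divergent region can therefore act on either gene or on both, and the position of the binding within the region is one of the few hints as to which. The histone genes and the galactose genes GAL1 and GAL10 are textbook cases of yeast gene pairs that share a control region.

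The data were 6 calling cards libraries, 1 per TF, namely the zinc cluster proteins Eds1, Leu3 and Rgt1, the helix-loop-helix protein Ino4 and the zinc finger proteins Sfp1 and Zap1. A TF is fused here to Sir4, a silencing protein that attracts the Ty5 retrotransposon, so that new Ty5 copies land near the sites where the TF sits. All 6 groups were the laboratory strain BY4741 with the genotype sir4D, carried the TF-Sir4 fusion on a plasmid together with a HIS3-marked Ty5 driven from a galactose-inducible promoter, and differed, as labelled, in the TF. Each was grown from a single clone on galactose plates, moved to rich medium, and then selected for inserted HIS3 copies and loss of the donor plasmid. Insertions were recovered by inverse PCR after 3 restriction digests. The deposited values are single insertions, each with its chromosome, position and count of sequencing reads, and the number of insertions is the measure used here.

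The libraries held from 15951 insertions for Ino4 to 75550 for Leu3. The share of a library that fell in the divergent regions was 24.0% for Eds1, 24.7% for Ino4, 24.9% for Leu3, 25.7% for Sfp1 and 23.5% for Zap1. The Rgt1 library stood apart with 16.3%. The lines of 5 of the 6 files run through the chromosomes more than once, and within the 4 such runs of Rgt1 the share was 11.2% to 18.2%, against 23.1% to 25.9% over all runs of the other libraries. In divergent regions 79.6% of the Leu3 and 83.9% of the Rgt1 insertions lay at distinct positions, against 96.0% to 98.4% in the other libraries. Insertions in the coding region of SIR4, which the strain lacks, numbered 2 for Eds1 and 0 in each other library.

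Divergent regions were among the parts of the genome richest in insertions, and almost all of them were hit. Their 890.8 kb took 47890 insertions, with a median of 16 per region over the 6 libraries together and a highest value of 1086. Only 17 of the 1288 regions, 1.32%, had no insertion at all, against 1.44% of tandem and 13.7% of convergent regions. All 6 libraries had at least 1 insertion in 514 regions, or 39.9%, and these had a median length of 765.5 bp, compared with 271 bp for the 17 empty regions. A count of 0 in a library allows up to 3 insertions, and intervals given below cover counting error only.

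Per kb, the divergent regions held 8.26 insertions for Eds1, 4.42 for Ino4, 21.1 for Leu3, 5.44 for Rgt1, 10.3 for Sfp1 and 4.22 for Zap1. These densities were higher than in convergent regions in each of the 6 libraries, by 2.50-fold for Ino4 to 4.73-fold for Leu3. The mean log2 ratio was 1.59 ± 0.34 (SD, n = 6 libraries; exact sign-flip permutation test over libraries, two-sided, p = 0.0312, the smallest possible, adjusted p = 0.0469). Gene bodies were lower still. The divergent regions exceeded them by 7.48-fold for Leu3 to 9.40-fold for Sfp1, with a mean log2 ratio of 3.05 ± 0.13 (SD, n = 6; same exact test, adjusted p = 0.0469). The size of this ratio depended on how regions were weighted. With each region or gene body weighted equally it was 2.83-fold for Rgt1 to 5.75-fold for Sfp1, with a mean log2 ratio of 2.14 ± 0.37 (SD, n = 6; same exact test, adjusted p = 0.0469).

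Against tandem regions no general difference was found. The ratio of densities, divergent to tandem, was 1.06 for Eds1, 1.12 for Ino4, 1.25 for Leu3, 1.17 for Sfp1 and 1.15 for Zap1, but 0.459 for Rgt1, and the mean log2 ratio was -0.02 ± 0.55 (SD, n = 6; exact sign-flip permutation test, p = 1). The Rgt1 library decided this value. Without it the mean log2 ratio was 0.20 and 5 of 5 libraries were higher in divergent regions (exact p = 0.0625, the smallest possible with 5 libraries). In the Rgt1 library the 24 richest tandem regions held 78.9% of all its tandem insertions, and the 13 richest divergent regions held 44.9% of its divergent ones. Leaving out the richest 1% of regions of each kind in every library (chosen as a setting once the values were known) gave 0.30 with 6 of 6 libraries higher (exact p = 0.0312). The typical region showed the same order as that setting: the median density of single divergent regions was above that of tandem regions in every library, 1.37 against 0.969 per kb even for Rgt1 and 8.91 against 7.80 per kb for Leu3. Region length was not matched in this comparison, and the order did not hold in every library among shorter regions (below).

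**Figure D1:**
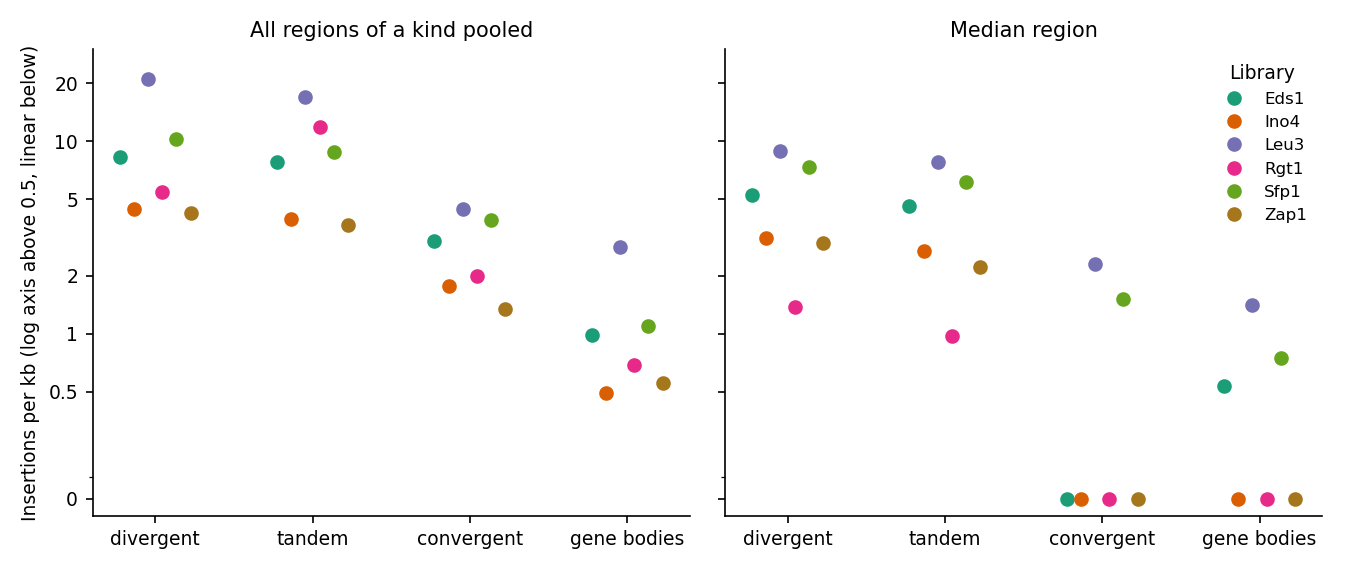
Insertions per kb in divergent, tandem and convergent regions and in gene bodies, 1 point per library (log axis above 0.5, linear below). Left, all regions of a kind pooled, where Rgt1 (pink) is at 5.44 in divergent and 11.8 in tandem regions. Right, the median region, where each library is higher in divergent than in tandem regions and 4 libraries are at 0 in convergent regions. Region length was not matched between the kinds.

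Divergent regions were longer than the others, with a median of 544 bp against 419 bp for tandem and 322 bp for convergent regions, so densities were also compared within classes of length. Longer divergent regions held more insertions per kb. From the 449 regions of 200 to under 400 bp to the 323 regions of 800 bp or more, the density went from 5.57 to 9.60 per kb for Eds1, from 3.44 to 4.75 for Ino4, from 11.3 to 26.2 for Leu3, from 2.96 to 7.06 for Rgt1, from 7.99 to 10.9 for Sfp1 and from 3.26 to 4.53 for Zap1. The rise was 1.36-fold for Sfp1 to 2.38-fold for Rgt1, higher in 6 of 6 libraries, with a mean log2 ratio of 0.77 ± 0.38 (SD, n = 6; exact sign-flip permutation test, p = 0.0312). With 50 bp taken off both ends of each region the mean log2 ratio was 0.52, in 6 of 6 libraries. The rise was not particular to divergent regions. Between the same classes, convergent regions were also higher in 6 of 6 libraries, such as 3.82 to 5.35 per kb for Leu3. Tandem regions rose for Eds1, Leu3, Rgt1 and Zap1, and fell for Ino4 (3.825 to 3.51) and Sfp1 (8.44 to 8.09). These rises were not tested.

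Within a length class no difference between divergent and tandem regions passed the test after adjustment over the 4 classes. The mean log2 ratio of divergent to tandem density was 0.00 ± 0.18 at 200 to under 400 bp (exact sign-flip permutation test, n = 6, adjusted p = 0.969) and -0.17 ± 0.13 at 400 to under 600 bp (0 of 6 libraries higher, exact p = 0.0312, the smallest possible, adjusted p = 0.125). At 600 to under 800 bp it was -0.23 ± 0.51 (exact adjusted p = 0.562) and at 800 bp or more 0.04 ± 0.82 (5 of 6 libraries higher, exact adjusted p = 0.969). The wide spread of the last class again came with the Rgt1 library, in which divergent regions of 800 bp or more held 7.06 insertions per kb and tandem ones 21.5. Without Rgt1 this class had a mean log2 ratio of 0.37. The median density of single regions also changed order with length. At 200 to under 400 bp it was lower in divergent regions for Ino4, Leu3 (6.99 against 7.54 per kb) and Sfp1, and equal for Rgt1. At 400 to under 600 bp it was lower for Eds1, Leu3 (8.39 against 9.06 per kb), Rgt1 and Zap1. In both longer classes it was higher in divergent regions in every library. These medians were not tested.

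**Figure D2:**
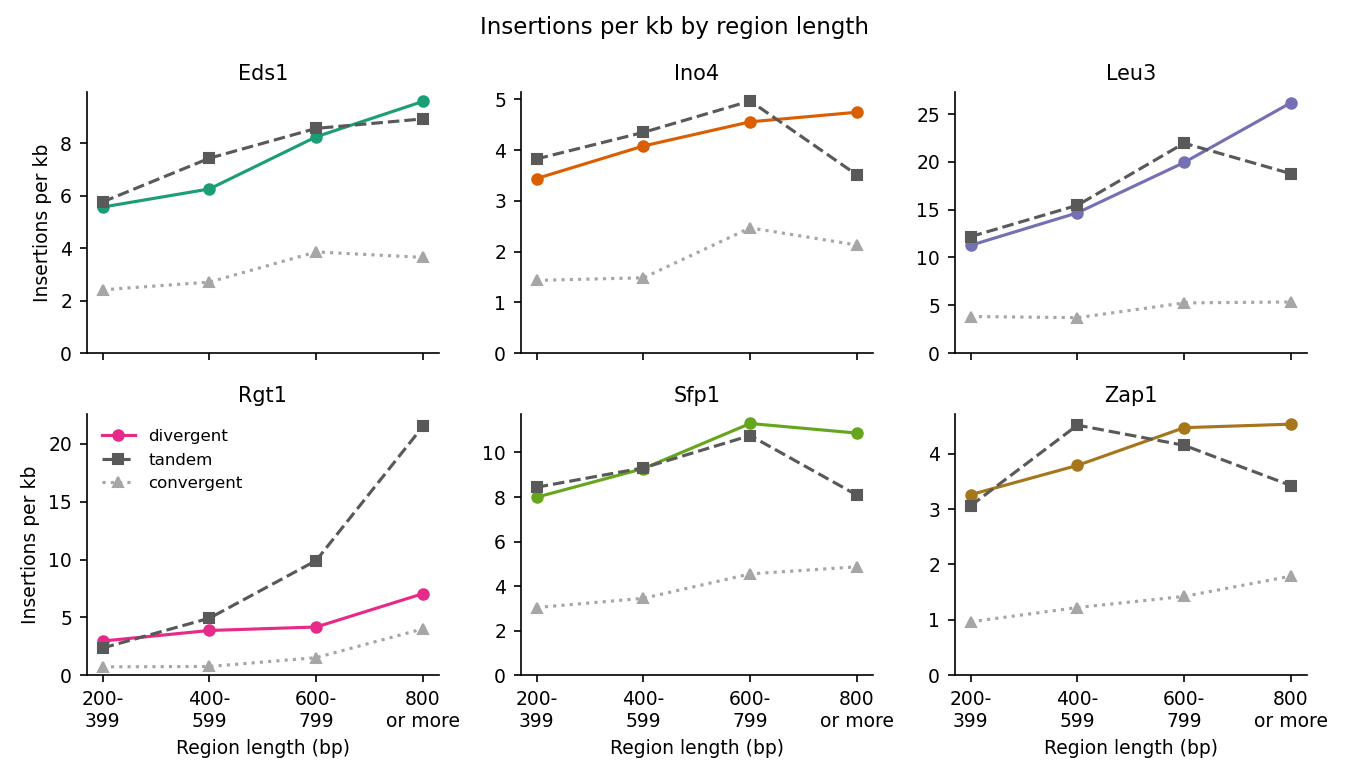
Insertions per kb against region length in 4 classes, 1 panel per library. Solid coloured lines are divergent, dashed grey lines tandem and dotted light grey lines convergent regions. The divergent line ends higher than it starts in all 6 panels, and tandem regions of 800 bp or more reach 21.5 per kb in the Rgt1 panel.

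The insertions were not spread evenly along the divergent regions. With each region divided into 3 equal parts, the central part was denser than the outer parts in 6 of 6 libraries, by 1.15-fold for Zap1 to 1.71-fold for Rgt1, with a mean log2 ratio of 0.42 ± 0.19 (SD, n = 6; exact sign-flip permutation test, p = 0.0312). Much of the difference lay at the edges. With 50 bp taken off both ends of each region the ratio fell to 0.16, with 5 of 6 libraries higher (exact p = 0.0625), which does not pass the threshold. In regions of 600 bp or more, 572 of them with 1144 start codons, the Leu3 density was 7.26 per kb in the first 50 bp before the start codon, 19.9 per kb at 100 to 150 bp and 31.9 per kb at 200 to 250 bp. For Sfp1 the same 3 bins held 3.13, 10.7 and 14.5 per kb. Ino4, the smallest library, had 1.73, 4.81 and 5.12 per kb. All 6 libraries were lowest in the 50 bp next to the start codon. Neither trait was particular to divergent regions. Tandem regions of 600 bp or more were also lowest there in all 6 libraries, with 3.18 per kb for Sfp1. In 10 equal parts, tandem regions were denser in part 5 than in parts 1 and 10 in each library. For Sfp1 these parts held 11.4, 4.54 and 4.80 per kb. No test was made of this in tandem regions.

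How far the rise went on into long regions differed between the libraries. In the 146 divergent regions of 1200 bp or more the Sfp1 density was 4.93 per kb within 100 bp of a start codon, 12.7 per kb at 200 to 300 bp and 11.8 per kb at 500 to 600 bp. Zap1 peaked at 200 to 300 bp with 6.47 per kb, where a single start codon took 15.9% of the insertions. At 500 to 600 bp Zap1 was at 3.84 per kb. Rgt1 went the other way, from 6.34 per kb at 200 to 300 bp to 14.0 per kb at 500 to 600 bp, where a single start codon took 30.2% of the insertions. Over 100 to 300 bp before the start codon, no difference between divergent and tandem regions of 600 bp or more passed the test. The mean log2 ratio was -0.10 ± 0.71 (SD, n = 6; exact sign-flip permutation test, p = 1), with 5 of 6 libraries higher in divergent regions, and 0.19 without Rgt1 (5 of 5, exact p = 0.0625).

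**Figure D3:**
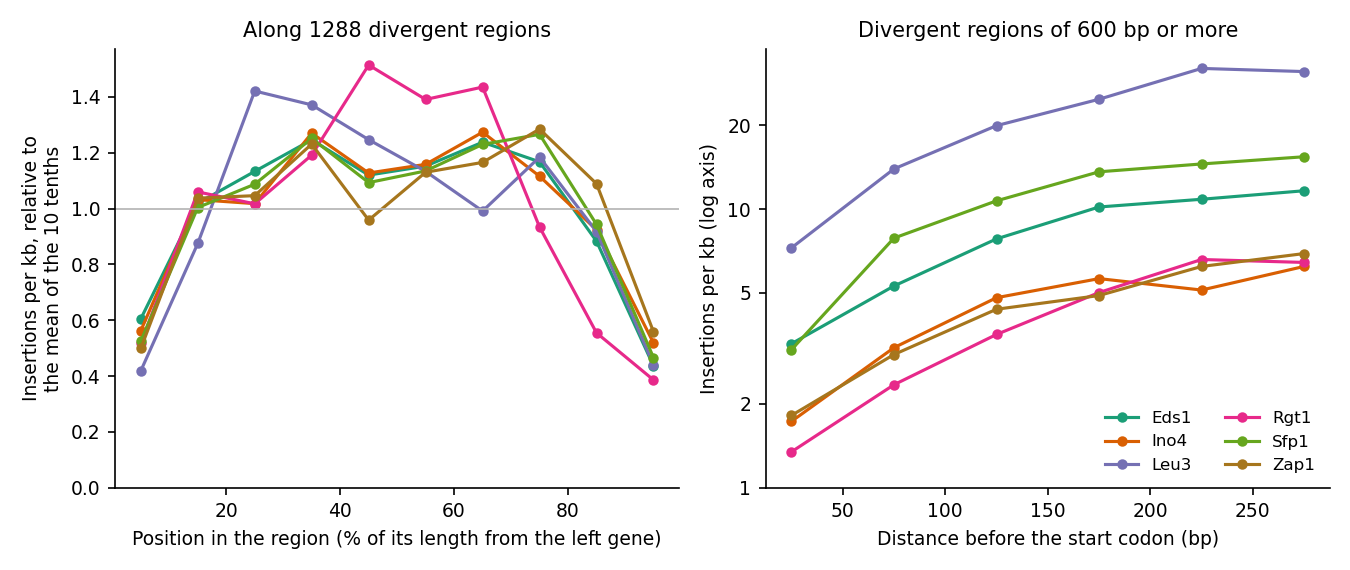
Left, insertions per kb in 10 equal parts of the 1288 divergent regions, divided by the mean of the 10 parts, so that 1 is an even spread. Right, insertions per kb (log axis) by distance before the start codon in divergent regions of 600 bp or more, where the Leu3 line climbs from 7.26 to above 30 per kb; each line is 1 library.

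To find the divergent regions at which a TF stood out, the share of its library in each region was set against the share in the 5 remaining libraries combined (Fisher's exact test, one-sided, with Benjamini-Hochberg adjustment over all 4433 intergenic regions). A region was called at an adjusted p under 0.05. With 1 library per TF this compares libraries and not conditions, and the comparisons share libraries with each other. Leu3 was called at 44 divergent regions, 3.42% of the 1288, against 2.44% of all regions tested. Sfp1 was called at 50, 3.88% against a background of 2.75%, and Rgt1 at 22, 1.71% against 1.24%. Eds1 was called at 8, 0.621% against 0.361%, Zap1 at 9, 0.699% against 0.406%, and Ino4 at 3, 0.233% against 0.451%. The shares in divergent regions were near those of all regions. In all 133 divergent regions were called for at least 1 TF, and 3 of them for 2 TFs, in each case Eds1 and Rgt1, which are paralogs. These were CYC3/CDC19, MTH1/RNH202 and YLR108C/AHP1, named after their values were seen.

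The called regions held 10.3% of all Leu3 insertions and 7.84% of all Rgt1 insertions, against 3.35% for Sfp1, 1.60% for Zap1, 1.48% for Eds1 and 0.433% for Ino4. Their insertions lay farther from the nearer start codon than those in the other divergent regions. The median distance in called and other regions was 309 and 234 bp for Leu3, 404 and 246 bp for Rgt1, 434 and 243 bp for Eds1, 298 and 223 bp for Zap1, 256 and 225 bp for Sfp1, and 243 and 231 bp for Ino4. Called regions were also long, with median lengths of 902 bp for Leu3, 760 bp for Rgt1 and 1632 bp for Eds1, so these distances are a description of the regions called.

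In many called regions the TF's insertions leaned to one gene of the pair. Among called regions with at least 20 insertions of the TF, the region was divided at its middle, and the side with more of them held a median of 91.3% in the 16 called regions of Rgt1, 82.7% in 6 of Zap1, 80.8% in 42 of Leu3, 75.5% in 8 of Eds1, 73.5% in 2 of Ino4 and 70.0% in 25 of Sfp1. The other 5 libraries had a median of 66.8%, 69.1%, 61.7%, 71.0%, 65.6% and 61.8% of their insertions on that same side, in the same order. Since the side was chosen on the TF's own insertions, these shares describe the called regions and carry no test. For Leu3 the share was at or over 80% in 21 of 42 regions, and for Rgt1 in 11 of 16.

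Leu3 is the regulator of branched-chain amino acid synthesis, and it binds DNA also when it represses. Of 19 genes written down for this pathway and its permeases, 6 border a divergent region. Of these 6 regions 3 were called for Leu3, 50% against 3.42% of all divergent regions. The median log2 ratio of Leu3 over the 6 was 1.83, against -0.24 over all divergent regions. The region between ILV5, which encodes acetohydroxyacid reductoisomerase of valine and isoleucine synthesis, and the mitophagy gene ATG33 held 722 Leu3 insertions. The other libraries had 23 for Eds1, 5 for Ino4, 3 for Rgt1, 18 for Sfp1 and 17 for Zap1. The share of the library was 18.6-fold higher in Leu3 (95% interval 14.4 to 24.3, counting error). The insertions were on the ILV5 side, 91.1% of them on the side of the middle nearer ILV5, and the richest 100 bp, chrXII:839579-839678 as deposited, took 313 of them.

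The region between LEU4, which encodes the first enzyme of leucine synthesis, and MET4, an activator of sulfur amino acid genes, had 460 Leu3 insertions against 17 for Eds1, 6 for Ino4, 7 for Rgt1, 38 for Sfp1 and 13 for Zap1, a 9.64-fold higher share (7.60 to 12.4). Here the Leu3 insertions stood near the middle, with 55.9% on the side nearer LEU4 and medians of 479 bp from LEU4 and 502 bp from MET4. The richest 100 bp, chrXIV:427217-427316, held 211. At SET5/BAT1, where BAT1 encodes the mitochondrial branched-chain aminotransferase and SET5 a histone methyltransferase, Leu3 had 140 insertions and the others 5, 2, 4, 11 and 1 for Eds1, Ino4, Rgt1, Sfp1 and Zap1. This is a 10.3-fold higher share (6.62 to 16.8), and 85.0% of the insertions lay on the side nearer BAT1. The regions of the permease genes AGP1 and BAP3 were not called, with 41 and 72 Leu3 insertions. At YER085C/ILV1, next to the threonine deaminase gene, Leu3 had 0 insertions and Sfp1 5, for which the region was called, and it is named here after its values were seen.

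Of the 4 largest Leu3 ratios among called regions with at least 20 insertions, that of ILV5/ATG33 was in this pathway and the other 3 were not. SSC1/TAH11, between a mitochondrial Hsp70 gene and a gene of replication licensing, had 150 Leu3 insertions and from 0 to 3 in each other library, a 31.8-fold higher share (15.7 to 75.1). YBL029C-A/YBL029W, between 2 open reading frames without a standard name, was the divergent region with the most insertions. Leu3 had 1003 there, against 17 for Eds1, 16 for Ino4, 3 for Rgt1, 36 for Sfp1 and 11 for Zap1, a 20.5-fold higher share (16.4 to 26.0). Its richest 100 bp, chrII:165079-165178, held 423 insertions, and 87.8% lay on the side nearer YBL029C-A. VMA7/DPC29, with VMA7 encoding a subunit of the vacuolar proton pump, had 60 Leu3 insertions within 302 bp and 6 in the other libraries together (17.0-fold, 7.36 to 48.1). DIC1/ORM2, between the mitochondrial dicarboxylate carrier gene and a regulator of sphingolipid synthesis, had 520 and 64 (13.8-fold, 10.6 to 18.2). In each of SSC1/TAH11, YBL029C-A/YBL029W, VMA7/DPC29 and DIC1/ORM2 the Leu3 count exceeded the sum of the other 5 libraries. They were picked by their Leu3 ratio or number of insertions, so this is a description only.

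Rgt1 represses hexose transporter genes when glucose is absent. Of 27 hexose transport and glucose signalling genes 5 border a divergent region. Of these 5 regions 3 were called for Rgt1, 60% against 1.71% of all divergent regions. The median log2 ratio of Rgt1 was 2.30 over the 5 against -0.45 over all divergent regions. HXT4/AHT1, before the hexose transporter gene HXT4, gave the largest ratio of any named region. Rgt1 had 112 of its 119 insertions, Eds1 the other 7, and Ino4, Leu3, Sfp1 and Zap1 had 0, a 93.5-fold higher share for Rgt1 (43.9 to 238). Within the 330 bp, the Rgt1 insertions had a median distance of 302 bp from HXT4, and 93.8% lay on the side away from it. Their median was 29 bp from the AHT1 edge of the region, and insertions beyond that edge were not counted. The share is therefore no measure of which gene the binding serves. The richest 100 bp, chrVIII:289046-289140, held 92. Without Leu3 in the background the share was 52.9-fold higher. MTH1/RNH202 borders MTH1, whose protein works together with Rgt1 in repression. Rgt1 had 224 insertions, Eds1 102, Ino4 17, Leu3 23, Sfp1 16 and Zap1 9, so Rgt1 (7.84-fold, 6.39 to 9.64) and Eds1 (1.99-fold, 1.57 to 2.50) were both called. These sizes depended on which libraries were in the background. The Eds1 share was 7.32-fold higher with Rgt1 left out of it and 1.22-fold with Leu3 left out, where it was not called (Fisher's exact test, adjusted p = 0.921). The Rgt1 share was 16.6-fold higher without Eds1 and 5.14-fold without Leu3, called in both. In this 3665 bp region, which also holds 1 RNA gene, 97.3% of the Rgt1 and 93.1% of the Eds1 insertions lay on the side nearer MTH1. Their richest 100 bp nearly coincided, chrIV:1016207-1016304 with 121 insertions for Rgt1 and chrIV:1016220-1016319 with 45 for Eds1.

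IMA5/HXT8, between an isomaltase gene and a hexose transporter gene, had 15 Rgt1 insertions, 13 for Leu3, 3 for Zap1, 1 each for Eds1 and Ino4 and 0 for Sfp1 (4.87-fold, 2.28 to 10.2, and 9.92-fold without Leu3 in the background). The glucose sensor gene RGT2, at SCM3/RGT2, was not called, with 5 Rgt1 insertions of 118. At HXT14/PFS2 Rgt1 had 0 of 4. Eds1, a paralog of Rgt1, was called at 1 of the 5 regions, MTH1/RNH202, and at 0.621% of all divergent regions. Its median log2 ratio was 0.17 over the 5 against 0.56 over all divergent regions. Outside the list, SKS1/RMI1 held the most Rgt1 insertions. SKS1 encodes a protein kinase of the response to low glucose and RMI1 a partner of the Sgs1 helicase. The counts were 696 for Rgt1, 80 for Eds1, 91 for Leu3, 34 for Sfp1 and 3 each for Ino4 and Zap1, a 19.3-fold higher share (16.5 to 22.6), spread over 415 distinct positions. SVF1/MRP1, between a cell survival factor and a mitochondrial ribosomal protein gene, had 116 Rgt1 insertions and 49 others (13.8-fold, 9.83 to 19.7). YOR062C/RPL3, next to a ribosomal protein gene, had 163 and 87 (10.9-fold, 8.39 to 14.4, and 17.8-fold without Eds1 in the background), with 96.3% of the Rgt1 insertions on the side nearer YOR062C. HAS1/TDA1, between an RNA helicase of ribosome biogenesis and a protein kinase gene, had 162 for Rgt1, 146 for Leu3, 65 for Eds1, 24 for Sfp1, 7 for Ino4 and 3 for Zap1 (3.86-fold, 3.15 to 4.73), with 9.88% of the Rgt1 insertions nearer HAS1.

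Eds1, a zinc cluster TF whose own targets are poorly known, had small ratios against the 5 pooled libraries. The 4 largest among called regions with at least 20 insertions were 3.15-fold at OPT1/PEX2 (1.83 to 5.30), 2.77-fold at GPP2/THO1 (1.71 to 4.39), 2.31-fold at RIE1/NOP19 (1.50 to 3.48) and 2.11-fold at NRG1/HEM13 (1.47 to 2.98). OPT1 encodes an oligopeptide transporter, GPP2 a glycerol phosphatase and NRG1 a repressor of glucose-repressed genes. At OPT1/PEX2 Eds1 had 24 insertions, Rgt1 17, Leu3 12, Sfp1 6 and Ino4 and Zap1 4 each. These 4 calls and that of MTH1/RNH202 depended on the background. With Leu3 left out of the pooled libraries no divergent region was called for Eds1 (80 at an unadjusted p under 0.05 by the same Fisher's exact test), and with Rgt1 left out 15 were, with RIE1/NOP19 no longer among them (adjusted p = 0.0765).

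Zap1 is the activator of genes needed when zinc is scarce. Of 21 zinc-responsive genes 11 border a divergent region. Of the 11 regions 4 were called for Zap1, 36.4% against 0.699% of all divergent regions. The median log2 ratio of Zap1 was 1.04 over the 11 against 0.93 over all divergent regions. With 1 insertion added to each side, the region MRM1/HIS3 had 0.97, with 0 insertions for Zap1 and 5 for the others. HPF1/ZPS1 lies before ZPS1, a cell surface protein gene that zinc regulates, and held 75 Zap1 insertions against 29 for Eds1, 21 for Ino4, 37 for Leu3, 6 for Rgt1 and 53 for Sfp1, a 6.02-fold higher share (4.50 to 8.01). On the side nearer ZPS1 lay 86.7% of the Zap1 insertions, and the side nearer HPF1 held 55.5% of those of the other libraries. The richest 100 bp for Zap1, chrXV:34284-34383, held 45 insertions, and the median of all 75 lay 349 bp before ZPS1. LST4/ZRT3 lies before ZRT3, which encodes the exporter of zinc from the vacuole. Zap1 had 34 insertions, Eds1 9, Ino4 11, Leu3 14, Rgt1 3 and Sfp1 21 (6.87-fold, 4.36 to 10.7). All 34 lay on the side nearer ZRT3, as did 91.4% of those of the other libraries, so this lean was shared.

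The other list regions called for Zap1 had few insertions. At ZAP1/LOG1, before the gene of Zap1 itself, the library had 10 insertions, Eds1 and Rgt1 2 each and the others 0, a 29.3-fold higher share (8.45 to 128). It was 17.5-fold without Leu3 in the background, 49.0-fold without Eds1 and 49.3-fold without Rgt1. The fusion was carried on a plasmid, and whether the insertions came from the chromosomal copy was not tested. ZRC1/YMR244W, with ZRC1 encoding the vacuolar zinc importer, had 12 for Zap1, 15 for Leu3, 9 for Eds1, 6 for Sfp1, 2 for Ino4 and 1 for Rgt1 (4.26-fold, 2.00 to 8.47), and 83.3% of the Zap1 insertions lay on the side nearer ZRC1. Without Rgt1 in the background it was not called (3.70-fold, Fisher's exact test, adjusted p = 0.117). The largest Zap1 ratios among regions with at least 20 insertions were outside the list, 8.37-fold at RTC4/TEX1 (30 against 42 in the others, 5.06 to 13.7) and 8.06-fold at REH1/RPS29A (22 against 32, 4.46 to 14.3). The zinc-responsive region ZRG8/YER034W was called for Rgt1, with 22 insertions, and not for Zap1, with 5.

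Ino4 forms a dimer with Ino2 that activates phospholipid genes. Of 26 phospholipid, inositol and fatty acid genes 9 border a divergent region. The median log2 ratio of Ino4 was 1.33 over the 9 against 0.97 over all divergent regions. With 1 insertion added to each side, the region MRM1/HIS3 also had 0.97, with 0 insertions for Ino4 and 5 for the others. Of these 9 regions 1 was called for Ino4, 11.1% against 0.233% of all divergent regions. This was ACC1/TIM23, where ACC1 encodes acetyl-CoA carboxylase, the first enzyme of fatty acid synthesis. Ino4 had 30 insertions, Eds1 24, Leu3 50, Rgt1 8, Sfp1 29 and Zap1 6 (3.02-fold, 1.95 to 4.54). The richest 100 bp of Ino4, chrXIV:662109-662196, held 18 of the 30, and their median lay 788 bp from ACC1 and 751 bp from TIM23. The region before INO2, INO2/YDR124W, was called for Leu3 with 153 insertions (4.19-fold, 3.10 to 5.72) and not for Ino4 with 20. At YOR316C-A/FAA1, next to a fatty acid activation gene, Ino4 had 27 insertions of 178 and was not called. SOD1/ADO1, between the superoxide dismutase and adenosine kinase genes, was the called region with the largest Ino4 ratio among those with at least 20 insertions, 26 against 96 in the others (3.19-fold, 1.98 to 4.96). On the side nearer SOD1 lay 23.1% of the Ino4 insertions and 55.2% of the others.

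Sfp1 activates ribosomal protein and ribosome biogenesis genes during growth. Its calls were many and its ratios small. Of 138 ribosomal protein genes 72 border 67 divergent regions. Of these 67 regions 10 were called for Sfp1, 14.9% against 3.88% of all divergent regions. The median log2 ratio of Sfp1 was 0.97 over the 67 against 0.74 over all divergent regions. Of the 33 regions next to ribosome biogenesis genes 0 were called for Sfp1, with medians of 0.75 and 0.74. The 10 called regions had 11 to 78 Sfp1 insertions. The largest ratio was at RPL13B/RPS16A, where both genes encode ribosomal proteins, with 11 for Sfp1, 3 for Leu3, 2 for Ino4, 1 each for Eds1 and Zap1 and 0 for Rgt1 (7.38-fold, 2.61 to 22.5). Of the Sfp1 insertions there 90.9% lay on the side nearer RPS16A. The smallest was at RHO5/RPS3, with 78 for Sfp1, 70 for Leu3, 34 for Eds1, 24 for Ino4, 20 for Zap1 and 18 for Rgt1 (2.21-fold, 1.67 to 2.91). RPL19A/AAC3, RPS14A/BPH1, RPL41B/SRF1, TIM21/RPL26B, RPS4B/MNL1, ATG27/RPL17B, RKI1/RPS7A and RPL11A/PRE2 lay between these. Without Leu3 in the background the calls of RPL19A/AAC3, RPL41B/SRF1, TIM21/RPL26B and RKI1/RPS7A were lost (Fisher's exact test, adjusted p from 0.0794 to 0.196). Without Rgt1 those of TIM21/RPL26B, RKI1/RPS7A and RPL11A/PRE2 were lost (0.116 to 0.129), and without Eds1 those of RKI1/RPS7A and RPL11A/PRE2 (0.0517 and 0.0561). Among the 67 regions 1 each was also called for Leu3, Rgt1 and Zap1, and 0 for Eds1 and Ino4. That is 1.49% each, against 3.42%, 1.71% and 0.699% of all divergent regions for Leu3, Rgt1 and Zap1.

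The regions with the largest Sfp1 ratios among those with at least 20 insertions were outside these lists. YGR161C-D/TIF4631, before a translation initiation factor gene, had 33 for Sfp1 against 27 in the others (5.74-fold, 3.35 to 9.93), and all 33 lay on the side nearer TIF4631, as did all 27. This lean was shared, and no library had an insertion on the side nearer YGR161C-D. The region also holds 1 other feature of the gene table, and whether insertions on that side can be placed was not tested. DIS3/TAT2, between an exosome nuclease and a tryptophan permease gene, had 24 and 23 (4.90-fold, 2.65 to 9.09, and 15.5-fold without Leu3 in the background). IST2/RFC5 had 37 and 36 (4.83-fold, 2.97 to 7.86), and ATG23/IMD3, next to a gene of guanine nucleotide synthesis, 20 and 20 (4.70-fold, 2.40 to 9.20, and 7.39-fold without Leu3). These calls rested on small counts, and with each position of a library counted once 24 of the 50 divergent calls were left for Sfp1 in number.

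**Figure D4:**
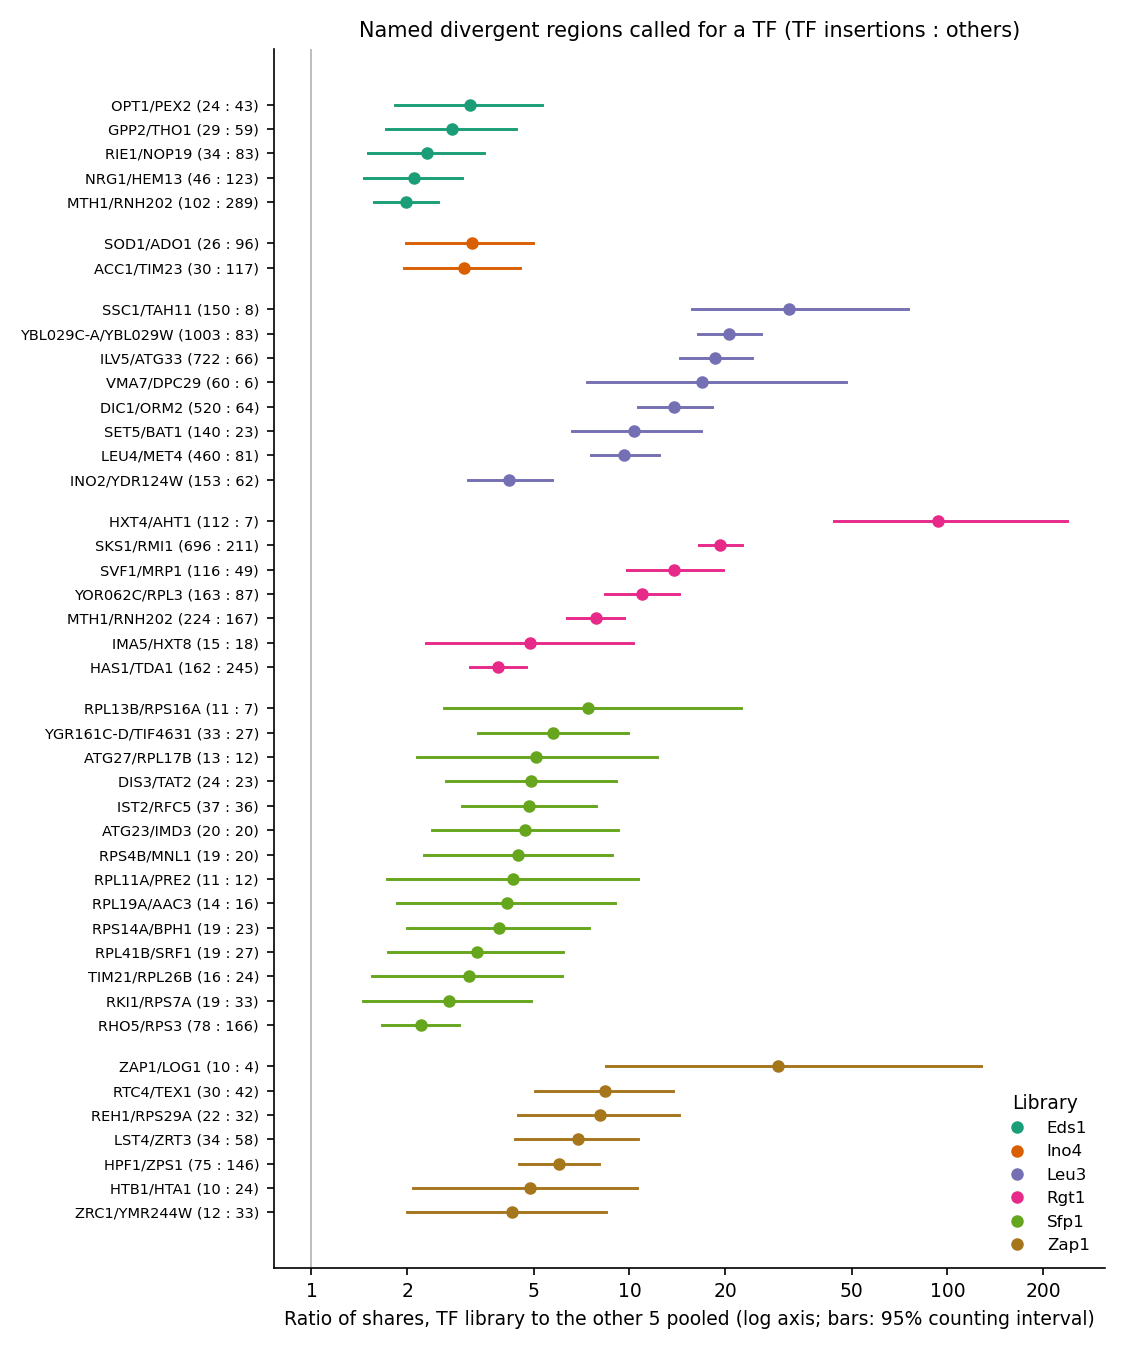
Ratio of the share of insertions in the TF library to that in the other 5 pooled (log axis, bars are exact 95% intervals of counting error) at the 43 named calls, with the insertions of the TF and of the others in brackets. Leu3 and Rgt1 reach from 3.86 to 93.5, and all Eds1 and Ino4 ratios lie under 4.

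Well-known divergent pairs, the 6 histone, GAL10/GAL1 and MRM1/HIS3 regions, had from 14 to 77 insertions a library. Their density was 6.68 per kb for Zap1 against 4.22 over all divergent regions, 5.88 for Ino4 against 4.42, 10.7 for Eds1 against 8.26 and 11.2 for Sfp1 against 10.3. It was 20.6 per kb for Leu3 against 21.1 and 3.74 for Rgt1 against 5.44. The 4 pairs of core histone genes had 35 insertions in all at HTA2/HTB2, 62 at HHF1/HHT1, 72 at HHT2/HHF2 and 34 at HTB1/HTA1. At HTB1/HTA1 Zap1 had 10 insertions, Leu3 12, Sfp1 5, Rgt1 4, Eds1 2 and Ino4 1, and the region was called for Zap1 (4.88-fold, 2.08 to 10.6) with an adjusted p of 0.0498 by Fisher's exact test, a call that held in 10 of 23 alternative settings. HHT2/HHF2 had 13 insertions for Ino4 (2.59-fold, 1.31 to 4.79) and was not called after adjustment. GAL10/GAL1, the galactose control region, had 12 insertions in the 6 libraries, 4 each for Leu3 and Sfp1, 2 for Zap1, 1 each for Eds1 and Ino4 and 0 for Rgt1. MRM1/HIS3, 237 bp long, had 5. The plasmid also carried HIS3 and a galactose-inducible promoter, and whether this affected the counts at GAL10/GAL1 and MRM1/HIS3 was not tested. Of the 3 divergent regions next to galactose genes 1 was called, RIO1/GCY1 for Sfp1, with 51 insertions against 89 in the others. Sfp1 was called at 3.88% of all divergent regions.

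**Figure D5:**
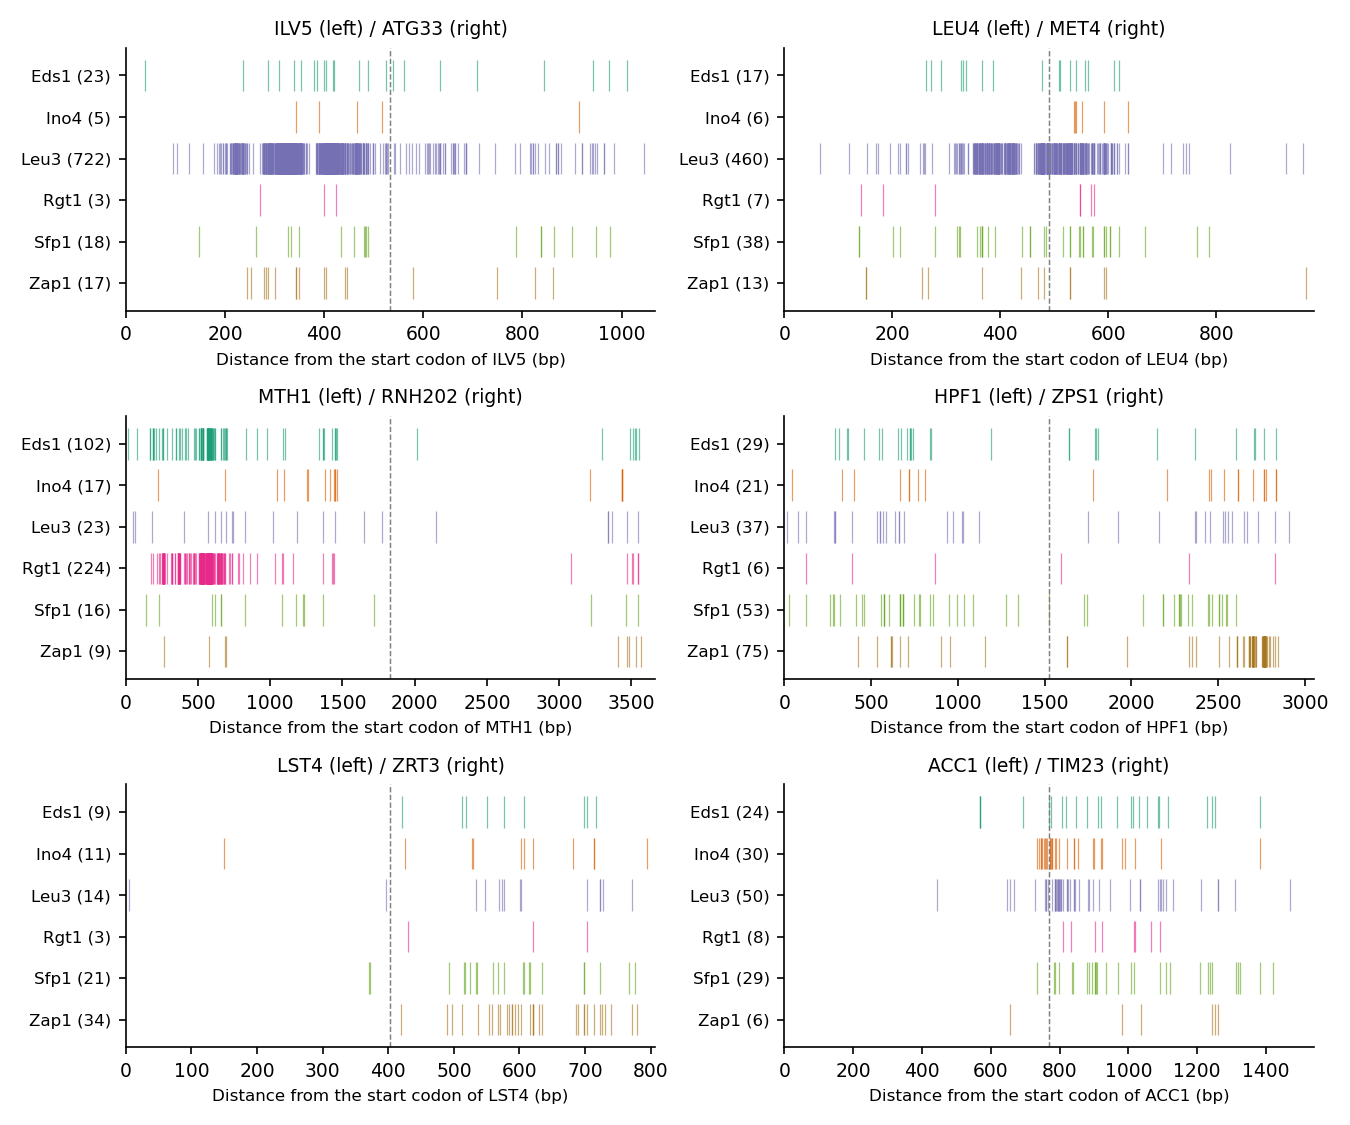
Single insertions (vertical lines) of each library in 6 divergent regions, by distance from the start codon of the left gene, with the number of insertions in brackets and the middle of the region dashed. The 722 Leu3 insertions of ILV5/ATG33 crowd on the ILV5 side, the 224 Rgt1 and 102 Eds1 insertions of MTH1/RNH202 on the MTH1 side and the 75 Zap1 insertions of HPF1/ZPS1 on the ZPS1 side, and those of Leu3 at LEU4/MET4 lie about the middle.

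Most calls depended on how neighbouring insertions were counted. In 1 setting, insertions of a library within 5 bp of the next were counted once, so that a whole run of them became 1 insertion. Under it 22 divergent regions were still called in number for Rgt1 and 2 for Leu3. For Eds1, Ino4, Sfp1 and Zap1 there were 0, with 37, 28, 61 and 50 at an unadjusted p under 0.05 by Fisher's exact test. Of the 43 named calls 8 passed under this setting, among them SKS1/RMI1, HXT4/AHT1 and MTH1/RNH202 for Rgt1 and SET5/BAT1 for Leu3. At ILV5/ATG33 the Leu3 ratio fell to 1.54 under it and at LEU4/MET4 to 1.00. The setting merges runs of close positions, so the regions with the densest insertions lose most by its construction. With each position counted once, 31 of the 43 passed.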

How the data were processed

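The sources describe calling cards libraries of 6 TFs, with 1 library each. The authors aligned the reads next to each Ty5 insertion (the submitters' processing notes name Novoalign, with no version stated) and deposited, for each insertion, its chromosome, position and count of reads, with no normalization. Each deposited line was counted as 1 insertion, whatever its reads. Repeated positions and PCR reads carry no molecular identifiers, so intervals cover counting error only. Libraries held 15951 to 75550 insertions. No library has a replicate, so tests over libraries use the 6 TFs as the samples, and whether they would hold in repeat libraries of 1 TF was not tested.

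Gene order, names and strand were taken from a RefSeq table of genes for assembly R64, while the positions are given as those of release R61. None of the table's coordinates is printed, and the positions given are those of the files. The fit of table and positions was checked on the data: moving the table in steps of 10 bp, the share of distinct insertion positions outside genes was highest at -30 to 30 bp on 15 chromosomes, with a gain of at most 0.769 percentage points, but at 300 bp on chromosome XI. Regions of XI beyond 200 kb were therefore left out, and no position was converted. Edges of regions may be off by some bp. No genome sequence was used.

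Densities are insertions per kb over all regions of a kind. Ratios of densities within a library were tested by exact sign-flip permutation tests over the 6 libraries, two-sided, with a smallest p of 0.0312. Regions were called for a TF by Fisher's exact test against the other 5 libraries pooled, using totals of whole libraries. The pooled libraries hold the targets of the other TFs. The ratio intervals are exact 95% intervals, and log2 ratios of regions have 1 insertion added to each side. This raises the log2 ratios of regions with few insertions, most in the smallest libraries. Median log2 ratios in convergent regions were 1.97 for Ino4 and Zap1, 1.5 for Eds1, 1.23 for Sfp1, 0.96 for Rgt1 and -0.24 for Leu3. A median above 0 is therefore no sign of a raised share, and medians of lists also depend on how many insertions their regions hold. The tests were also run on simulated insertions drawn independently, without the clusters of the real libraries. Their error rate with clustered insertions was not tested. Python 3.11.15, numpy 2.4.6, pandas 2.3.3 and scipy 1.17.1 were used. Regions are named by their genes: per library the 4 largest ratios among called regions with at least 20 insertions, the 5 regions with the most insertions, the histone, GAL10/GAL1 and MRM1/HIS3 pairs, and in each gene list the called regions and those with the most insertions. AGP1/KCC4, BAP3/HEM12, HXT14/PFS2, ZRG8/YER034W and RIO1/GCY1 fall outside this rule and were named after their values were seen. The regions, lists and tests were chosen with earlier results of these data known. Calling cards data of other TFs and the paper's other assays were not analysed here.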

Additional observations from a re-analysis of the deposited data

Results flagged for a closer look

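The Rgt1 library stood far below the other 5 libraries in the log2 ratio of divergent to tandem density, at -1.12, while the others lay between 0.08 and 0.33. It was also far below them within regions of 600 to under 800 bp (-1.25), of 800 bp or more (-1.61) and at 100 to 300 bp before the start codon (-1.53). In this library the 24 richest tandem regions held 78.9% of the tandem insertions. The Leu3 library stood above the others in the log2 ratio of divergent to convergent density, at 2.24, with the others between 1.32 and 1.66. These values were picked by Dixon's test of the most extreme of 6 libraries, which by chance flags about 1 in 20 groups, and the 4 Rgt1 values share insertions.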

How the results depend on the processing

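Divergent regions stayed above convergent regions and gene bodies, and long divergent regions above short ones, under all alternatives, with ranges of 1.42 to 1.76, 2.14 to 3.21 and 0.49 to 0.99 (mean log2 ratio) and leave-one-out ranges of 1.46 to 1.64, 3.01 to 3.08 and 0.68 to 0.84. The lowest value against gene bodies, 2.14, came with regions weighted equally. Without any 1 library the exact test cannot go below p = 0.0625. The ratio of the central to the outer parts of regions ranged from 0.34 to 0.46 without 1 library, was 0.16 with 50 bp off both ends and reached 0.59 with regions weighted equally. The ratio of divergent to tandem density, -0.02, had no stable sign: it was 0.094 with each position counted once, 0.22 with insertions within 5 bp counted once, 0.012 with all of chromosome XI, 0.016 with regions weighted equally, 0.30 without the richest 1% of regions, and -0.088 to 0.20 without 1 library. At 100 to 300 bp before the start codon it was 0.065 with each position counted once, 0.25 within 5 bp and 0.24 without the richest 1% (-0.18 to 0.19 without 1 library).

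Within length classes, none of which passed the test, the sign turned at 200 to under 400 bp with positions counted once (-0.022), within 5 bp (-0.061), the table moved left by 50 bp (-0.031) or 20 bp (-0.019), a minimum of 300 bp (-0.00209), all of XI (-0.00717) and without the richest 1% (-0.062). It turned at 600 to under 800 bp within 5 bp (0.089) and without the richest 1% (0.049), and at 800 bp or more without regions holding another feature (-0.14) and 50 kb from the ends (-0.013). Without 1 library the 4 classes ranged from -0.061 to 0.035, -0.20 to -0.13, -0.30 to -0.028 and -0.048 to 0.37.

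The counts of called divergent regions moved by over 1.5 times in these settings. With positions counted once there were 3 for Eds1 and 24 for Sfp1. Within 5 bp there were 2 for Leu3 and 0 for Eds1, Ino4, Sfp1 and Zap1. With at least 10 insertions in the 6 libraries there were 14 for Eds1 and 6 for Ino4, with totals without bound regions 2 for Eds1 and 29 for Sfp1, and with background libraries weighted equally 3 for Eds1. With the background without Eds1 there were 7 for Ino4, without Leu3 0 for Eds1, 5 for Ino4 and 31 for Sfp1, without Rgt1 15 for Eds1, and without Sfp1 5 for Ino4. Over all alternatives the 43 named calls held in 885 cases, were lost in 94 and turned in 0. Except where a setting by its construction merges or removes insertions, the cause was not tested.

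No paired analysis was possible because each TF has 1 library and so no replicates to pair across TFs. The comparisons of region kinds were made within each library. In the smallest libraries, Ino4 and Zap1, 27.6% and 28.0% of divergent regions had no insertion. The share did not follow depth alone, being 43.2% for Rgt1 with 29776 insertions and 17.1% for Eds1 with 30707. All of chromosome XI and the richest 1% were settings added after seeing the data.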
